A study of Mus musculus with 32 samples.

Results

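Of the 11666 peaks of the glucocorticoid receptor (GR) mapped in mouse liver, 2563 (22.0%) lay in chromatin that was already accessible in vehicle-treated animals and carried no peak of the transcription factor C/EBPβ. They were chosen by position: each GR interval shared at least 1 bp with a DNase I hypersensitive site (DHS) of vehicle liver and shared none with a C/EBPβ peak of either treatment. They made up 27.8% (95% Wilson interval 26.8 to 28.7) of the 9236 GR peaks in vehicle DHS. Another 5713 of those 9236 overlapped a C/EBPβ peak found in vehicle liver, and 960 overlapped a C/EBPβ peak found only after hormone. All intervals in parentheses after a share are of this kind and cover counting error only.

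GR is a nuclear receptor that binds DNA after glucocorticoid enters the cell. In many tissues most of its sites lie in chromatin that other factors keep open beforehand. C/EBPβ is a leucine zipper factor abundant in hepatocytes, and the series asks whether C/EBP proteins maintain such openness in liver and help GR to bind. Sites that are open beforehand without a C/EBPβ peak are a part of the GR map where that factor was not detected in the bound interval. Another 1482 GR peaks without C/EBPβ lay in newly open chromatin.

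Livers came from male C57BL/6 mice, 8 weeks old, from which both adrenal glands had been removed, so that every group lacked its main source of corticosterone. Animals received dexamethasone, a synthetic GR ligand, at 1 mg/kg in a cyclodextrin complex, or cyclodextrin alone as vehicle, in 300 ul of saline by intraperitoneal injection, and the series states a treatment of 1 h. The 32 samples form 16 groups, and the lists used here refer to DNase-seq after dexamethasone (2 samples), DNase-seq after vehicle (2), C/EBPβ ChIP-seq after dexamethasone (2), C/EBPβ ChIP-seq after vehicle (2), and GR ChIP-seq, whose list names no treatment. Whole liver holds several cell types, which these maps cannot separate, and the adenovirus, RNA polymerase II and input samples were left out.

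The deposited data are 5 lists of mm9 intervals: 11666 GR peaks, 63473 DHS after dexamethasone, 56794 DHS after vehicle, 25392 C/EBPβ peaks after dexamethasone and 22714 after vehicle. They give positions only, with 1 list per assay and treatment and no value per sample, so read depth is unknown and no difference between treatments has a replicate check. Every test below compares classes of regions within these lists. Neighbouring regions are not independent, so each test was also repeated with each chromosome left out in turn, and the ranges stand in the closing section. A C/EBPβ peak that missed the authors' threshold would count as absent.

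The GR peaks without C/EBPβ were spread over all 20 chromosomes that had any GR peak. On the 19 autosomes they made up between 23.9% (chromosome 18) and 31.7% (chromosome 11) of the GR peaks in vehicle DHS, with a median of 27.0%. Chromosome X stood higher, at 27 of 70 peaks (38.6%, 28.0 to 50.3), on few peaks. Of those 27, 7 lay in a single 100-kb window, chrX:137000000-137100000, and without that window the share on X was 20 of 61 (32.8%, 22.3 to 45.3). These shares follow from the rule and were not tested.

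**Figure D1:**
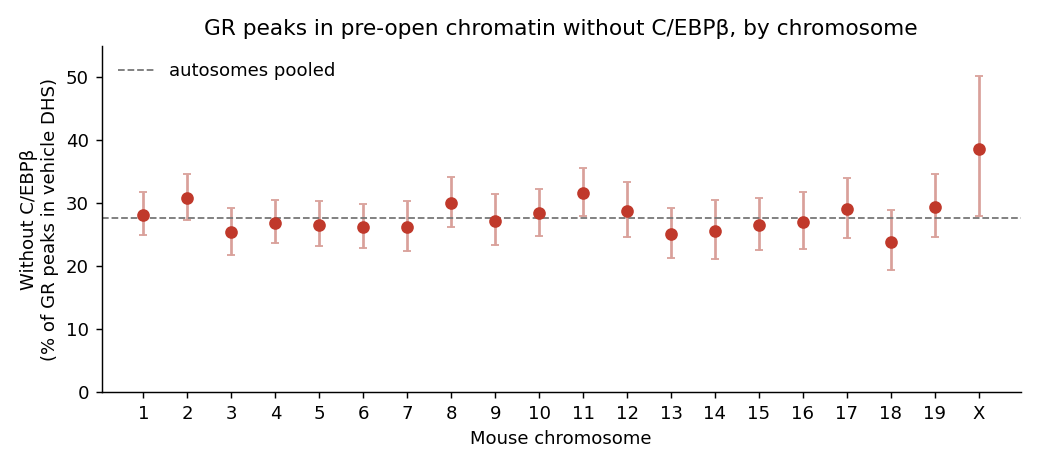
Share of GR peaks in vehicle DHS that carried no C/EBPβ peak of either list (points, %), by chromosome, with 95% Wilson intervals (bars) and the pooled autosomal share of 27.7% (dashed line). Chromosome X has the highest point, 38.6%, and the widest interval.

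Most of these peaks were the only one of the class in their 100-kb window. Windows with a single one held 1566 of the 2563 (61.1%), and 29 windows held 4 or more. The spread of other classes over windows was not compared. The window on chromosome X had the most, with 7 of its 12 GR peaks in this class, 1 with vehicle C/EBPβ and 1 with C/EBPβ after dexamethasone only. It also held 22 DHS after dexamethasone and 20 after vehicle. Next came chr2:167600000-167700000, with 6 of 17 GR peaks in the class. Here 6 others had gained C/EBPβ after hormone and 4 carried it in vehicle liver, and the window had 13 C/EBPβ peaks after dexamethasone and 5 after vehicle. The remaining windows named by rank, chr3:97400000-97500000, chr4:45400000-45500000 and chr7:29700000-29800000, held 5 each, of 9, 12 and 9 GR peaks, and were among 7 windows with that number. In all 5 windows, then, GR peaks without C/EBPβ lay among GR peaks with it. Such neighbours are common, since 49.0% of all GR peaks were pre-open with vehicle C/EBPβ. Across the genome, 659 of the 1987 windows with any peak of the class had no GR peak of another class.

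The peaks fell in 2490 vehicle DHS, of which 2164 (86.9%) held 1 of them and no other GR peak. A pair shared a DHS in 72 cases and a trio in 1. The trio lay within chr8:10856826-10858401, a DHS of 1551 bp after dexamethasone and 1575 bp after vehicle with no C/EBPβ peak, and the starts of its outer GR peaks were 943 bp apart. A narrower site, chr1:166633569-166634314, held a pair of GR peaks 427 bp apart, again with no C/EBPβ peak, and measured 1248 bp after dexamethasone and 745 bp after vehicle. Another class of GR peak was present in 257 of the 2490 DHS, in 228 of them a peak with vehicle C/EBPβ.

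The missing C/EBPβ was mostly missing from the whole accessible site. In 2233 DHS every GR peak belonged to the class, and 1850 of these (82.8%) held no C/EBPβ peak anywhere. Those 1850 were 74.3% of all 2490 DHS with a peak of the class. Of the 2233, vehicle C/EBPβ lay elsewhere in 305 (13.7%), and C/EBPβ found only after dexamethasone in 78 (3.49%). The background is high, since 36140 of all 56794 vehicle DHS held no C/EBPβ peak. GR-bound sites were a small part of the accessible genome without C/EBPβ. Of 36140 vehicle DHS with no C/EBPβ peak, 1851 (5.12%, 4.90 to 5.35) held a GR peak, against 5955 of 17687 (33.7%, 33.0 to 34.4) with vehicle C/EBPβ. DHS without C/EBPβ were wider where GR was present, with a median of 650 bp, against 553 bp without GR. The rule used these lists, so the figures are a description and carry no test.

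From the GR centre to the nearest C/EBPβ centre of either list the median distance was 3136 bp, with quartiles of 657 and 11998 bp. Within 500 bp lay 539 of the 2563 peaks (21.0%, 19.5 to 22.7), and within 10 kb (10000 bp) 1833 (71.5%, 69.7 to 73.2). By comparison, the 1482 GR peaks in newly accessible chromatin without C/EBPβ lay farther away, at a median of 7515 bp. The nearest other GR peak was a median of 7813 bp away for pre-open peaks without C/EBPβ, 15253 bp for the newly open ones and 8224 bp for pre-open peaks with vehicle C/EBPβ. By these medians, pre-open peaks without C/EBPβ lay nearer to the spacing of those with vehicle C/EBPβ than to that of newly open ones, a description with no test.

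**Figure D2:**
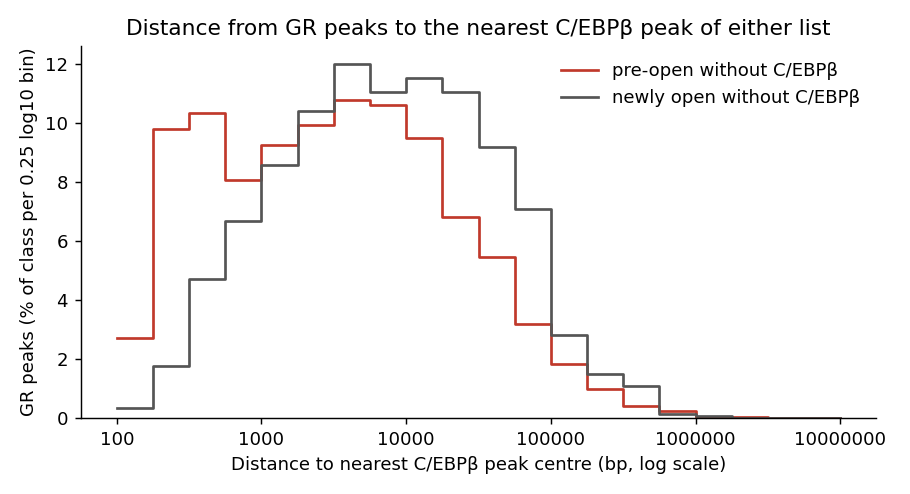
Distance from GR peak centres to the nearest C/EBPβ peak centre of either list (bp, log scale), as the share of each class per bin, for 2563 GR peaks in pre-open and 1482 in newly open chromatin, both without C/EBPβ. The pre-open class has a second hump below 1000 bp, and its median is 3136 bp against 7515 bp in the newly open class.

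At the edge of the rule, 31 peaks of the class had a gap of 10 bp or less to a C/EBPβ peak, while 34 GR peaks in vehicle DHS were left out by a C/EBPβ overlap of 1 to 10 bp. With a limit of 50 bp the numbers were 119 just inside and 237 just outside. At the border of accessibility, 9 peaks of the class overlapped their vehicle DHS by 10 bp or less, and 12 GR peaks without C/EBPβ missed a vehicle DHS by 10 bp or less. Those near a C/EBPβ border could be followed in 90 and 193 DHS with 1 GR peak matched 1 to 1 between the DHS lists. The log2 ratio of dexamethasone over vehicle width had a median of 0.15 just inside the rule and 0.21 just outside. Peaks just outside were counted on C/EBPβ peaks of either list. They thus pool vehicle C/EBPβ with C/EBPβ after dexamethasone only, and were not separated.

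Within their vehicle DHS these GR peaks lay less centrally than those with vehicle C/EBPβ. The GR centre was a median of 85.5 bp from the DHS centre (quartiles 35 and 201 bp), against 53 bp (23.5 and 122 bp) for GR peaks with vehicle C/EBPβ. To the nearer end of the DHS it was 269 bp and 315 bp. The whole 150-bp GR interval lay inside the vehicle DHS for 2380 of 2563 (92.9%, 91.8 to 93.8), against 5691 of 5713 (99.6%, 99.4 to 99.7) with vehicle C/EBPβ. GR peaks with C/EBPβ after dexamethasone only were close to the class in 2 of these measures, with 272 bp to the nearer end and 909 of 960 wholly inside (94.7%, 93.1 to 95.9), and were 58.5 bp from the centre. After dexamethasone 2541 of the 2553 that overlapped a DHS were wholly inside it. For 170 peaks the interval was wholly inside the DHS after dexamethasone but not after vehicle, while the opposite held for 9.

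The first question open to a test is whether the sites stayed accessible after hormone, since the dexamethasone DHS list took no part in the rule. Nearly all did. A dexamethasone DHS overlapped 2553 of the 2563 peaks (99.6%), against 5707 of 5713 with vehicle C/EBPβ (99.9%). The background was close to this: 99.8% of all GR peaks in vehicle DHS overlapped a dexamethasone DHS, as did 96.6% of all GR peaks and 85.1% of all vehicle DHS. The 10 exceptions against 6 gave an odds ratio of 0.268 (95% Woolf interval 0.0974 to 0.739; two-sided Fisher's exact p = 0.0117, and 0.0137 after Benjamini-Hochberg adjustment over the 7 tests reported). The test rests on 16 exceptions in all, and the difference missed the threshold when the GR centre had to lie inside the intervals (odds ratio 0.371, Fisher's exact p = 0.0606). Among the 10 exceptions, 7 lay wholly inside their vehicle DHS. The vehicle DHS of all 10 were 175 to 2688 bp wide, and the widest was at the GR peak chr14:52533840-52533990.

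The second question is whether accessibility changed around the sites. Since the lists hold no signal, the measure is the width of the DHS, compared for pairs of DHS, the dexamethasone one and the vehicle one, that overlapped nothing else in the opposite list. Of the 2233 vehicle DHS whose GR peaks were all without C/EBPβ, 2035 (91.1%) could be matched in this way. A further 136 had merged with a neighbour, 55 were split and 7 were absent after dexamethasone. The vehicle DHS list, which supplies the starting widths and ends, also took part in the rule. Tests of the change in width and of its side are thus not independent of how the sites were chosen.

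These DHS were wider after dexamethasone. Their median width was 804 bp after dexamethasone (quartiles 675 and 1015 bp) and 678 bp after vehicle (564 and 865 bp). The median of the log2 ratio was 0.18, with quartiles of 0.02 and 0.40, so the middle range of sites lay above 0. In DHS whose GR peaks all carried vehicle C/EBPβ the median widths were 784 bp after dexamethasone and 728 bp after vehicle, and the median log2 ratio was 0.08 (quartiles -0.06 and 0.24). In DHS without a GR peak they were 602 bp and 608 bp, with a median log2 ratio of -0.02 (-0.19 and 0.16). That set held 36267 of the 36401 matched DHS with no GR peak in the vehicle interval. The rest had a GR peak in the matched dexamethasone interval and were left out. By median width, DHS whose GR peaks all lacked C/EBPβ were slightly wider than those with vehicle C/EBPβ after dexamethasone, and narrower after vehicle.

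Any gain in width was found in 1577 of the 2035 DHS (77.5%), against 3143 of 4887 with vehicle C/EBPβ (64.3%) and a background of 51.1% over all 44381 matched DHS. Where all GR peaks had C/EBPβ after dexamethasone only, it was found in 679 of 796 (85.3%). In DHS with GR peaks both without C/EBPβ and with vehicle C/EBPβ it was found in 159 of 205 (77.6%). A gain was thus not particular to GR without C/EBPβ. A DHS was called wider where its width had grown by 25% or more. This was so for 658 of 2035 DHS with GR and no C/EBPβ at the GR peak (32.3%, 30.3 to 34.4), for 864 of 4887 with vehicle C/EBPβ (17.7%, 16.6 to 18.8) and for 4582 of 36267 without GR (12.6%, 12.3 to 13.0). The background was 15%. The odds ratio against DHS with vehicle C/EBPβ was 2.22 (1.98 to 2.50; two-sided Fisher's exact p = 4.91e-39, adjusted p = 1.15e-38), and against DHS without GR 3.30 (2.996 to 3.64; p = 6.42e-110, adjusted p = 4.49e-109). The share was higher than with vehicle C/EBPβ on 20 of 20 chromosomes. Over chromosomes it ran from 26.9% to 39.3% where the GR peaks lacked C/EBPβ, and from 14.6% to 23.1% with vehicle C/EBPβ. The ranges did not overlap. Vehicle width, the divisor of the ratio, comes from a list that the rule used. These p-values and ranges are thus not independent of how the sites were chosen.

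Narrowing was rare in the class. A loss of 20% of the width or more was found in 53 of the 2035 DHS (2.60%), in 210 of 4887 with vehicle C/EBPβ (4.30%) and in 5087 of 36267 without GR (14.0%), with a background of 12.1%. The odds ratios were 0.596 (0.439 to 0.809; two-sided Fisher's exact p = 6.90e-04, adjusted p = 9.66e-04) and 0.164 (0.125 to 0.216; p = 9.73e-68, adjusted p = 3.41e-67). With a stricter limit, a 1.5-fold loss, the odds ratio against vehicle C/EBPβ was 0.820 (0.436 to 1.54; Fisher's exact p = 0.644). The narrowing comparisons were added after the data were seen. They use the other end of the same width ratio, so they are independent neither of the gain nor of the rule. Narrowing was rarer still where all GR peaks had C/EBPβ after dexamethasone only (14 of 796, 1.76%). In DHS with GR peaks both without C/EBPβ and with vehicle C/EBPβ it was found in 1 of 205 (0.488%). Rare narrowing was thus not particular to GR without C/EBPβ.

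**Figure D3:**
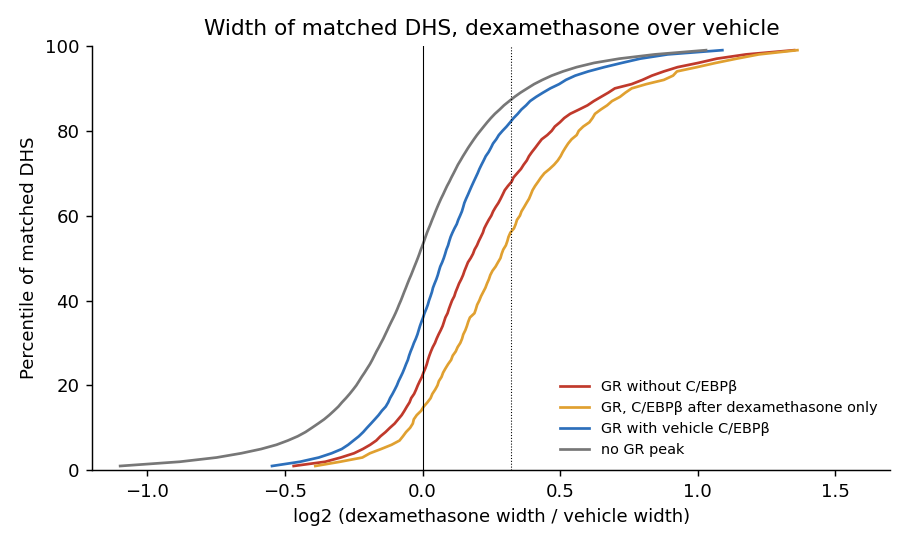
Percentiles of the log2 ratio of dexamethasone over vehicle width for DHS matched between the lists, by the GR and C/EBPβ peaks in them. The vertical lines mark no change and a 25% gain. The curve for GR without C/EBPβ (median 0.18) lies right of those for GR with vehicle C/EBPβ (0.08) and no GR (-0.02), and left of that for GR with C/EBPβ after dexamethasone only (0.28).

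Sites that gained C/EBPβ are shown for comparison. In 796 matched DHS whose GR peaks all had C/EBPβ in the dexamethasone list only, the median widths were 828 bp after dexamethasone and 661 bp after vehicle, and 43.8% (40.4 to 47.3) were wider by 25% or more. That class was defined by a difference between the dexamethasone and vehicle C/EBPβ lists, and no test is given. In 205 matched DHS where a GR peak without C/EBPβ sat beside one with vehicle C/EBPβ, the median log2 ratio was 0.14 and 28.3% (22.6 to 34.8) were wider.

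The narrowest decile of vehicle DHS gained the most width in each class, and DHS of the class were narrower in vehicle liver than those with vehicle C/EBPβ, so the comparison was repeated within 10 deciles of vehicle width. The odds ratio against vehicle C/EBPβ was then 1.76 (1.54 to 2.02, Mantel-Haenszel estimate) and that against DHS without GR was 7.70 (6.82 to 8.69). In the sixth decile (626 to 669 bp), 66 of 208 DHS whose GR peaks all lacked C/EBPβ were wider (31.7%). With vehicle C/EBPβ 89 of 532 were wider (16.7%), and without GR 181 of 3588 (5.04%). The share where GR lacked C/EBPβ was above that with vehicle C/EBPβ in 9 of 10 deciles. The exception was the widest, from 998 bp upward, where 12 of 347 (3.46%) and 35 of 880 (3.98%) were wider. The GR position, which was also less central without C/EBPβ, entered a stratification by width and offset together, and the odds ratio was 1.49 (1.29 to 1.71).

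**Figure D4:**
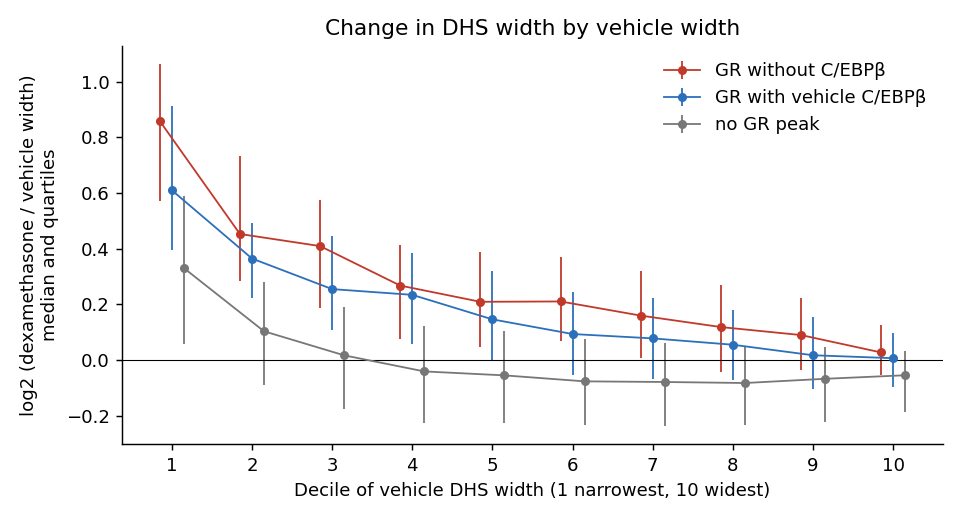
Median (points) and quartiles (bars) of the log2 ratio of dexamethasone over vehicle DHS width, by decile of vehicle width. DHS whose GR peaks all lacked C/EBPβ lie above those with vehicle C/EBPβ and those without GR in 10 of 10 deciles. In that order the medians run from 0.86, 0.61 and 0.33 in the narrowest to 0.03, 0.01 and -0.06 in the widest.

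Among DHS whose GR peaks all lacked C/EBPβ, the gain in width varied with the surroundings. Where no C/EBPβ peak lay anywhere in the DHS, 574 of 1679 (34.2%, 32.0 to 36.5) were wider by 25% or more, with median widths of 763 bp after dexamethasone and 648 bp after vehicle. Where one lay elsewhere in the DHS, 84 of 356 (23.6%, 19.5 to 28.3) were wider, with median widths of 1096 bp and 970 bp. The median gain in base pairs was nearly equal, at 96 and 92 bp. By distance to the nearest C/EBPβ centre the share wider was 29.9% under 300 bp (177 DHS), 23.3% from 300 bp to 1 kb (266), 31.0% from 1 to 5 kb (609), 33.5% from 5 to 20 kb (528) and 40.7% from 20 kb (396). Vehicle widths differed over these bins (830, 935, 658, 627 and 634 bp), and the part of width in this order was not tested.

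Where the GR interval reached beyond its vehicle DHS, 86 of 115 sites (74.8%, 66.1 to 81.8) were wider, with median widths of 828 bp after dexamethasone and 567 bp after vehicle and a median log2 ratio of 0.53. With vehicle C/EBPβ such sites were few, and 14 of 17 (82.4%, 59.0 to 93.8) were wider, with a median log2 ratio of 1.02. Where it lay wholly inside, 556 of 1861 (29.9%, 27.8 to 32.0) were wider without C/EBPβ and 846 of 4764 (17.8%, 16.7 to 18.9) with vehicle C/EBPβ. DHS with 2 or 3 GR peaks, all without C/EBPβ, showed a share of 16 of 59 (27.1%, 17.4 to 39.6), within the counting error of the 642 of 1976 (32.5%, 30.5 to 34.6) with a single one.

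Of the 5 largest relative gains, 3 were in sites under 300 bp wide in vehicle liver. At chr17:28573100-28573272 (vehicle coordinates) the DHS measured 746 bp after dexamethasone and 172 bp after vehicle, a ratio of 4.34, around a GR peak at 28573192-28573342 that overlapped the vehicle DHS by 80 bp. The DHS at chr3:129281911-129282162 was 3.53 times as wide after dexamethasone, at 885 bp, and that at chr5:24575606-24575875 measured 900 bp after dexamethasone and 269 bp after vehicle. In both the GR peak crossed the vehicle boundary, with overlaps of 61 and 84 bp. A DHS on chromosome 18 (2558 bp after dexamethasone and 634 bp after vehicle) and chr5:151861862-151862377 (1762 bp and 515 bp) gained over 1 kb (1000 bp) with the GR peak wholly inside. In both the GR centre lay close to the middle of the vehicle DHS, so neither end counts as the nearer. The ends moved out by 1649 and 275 bp on chromosome 18, and by 1141 and 106 bp at chr5:151861862-151862377. None of the 5 had a C/EBPβ peak in the vehicle DHS.

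The largest relative losses were mostly in wide sites. The DHS at chr6:85814471-85815587 measured 453 bp after dexamethasone and 1116 bp after vehicle, and that at chr7:20279437-20281109 measured 689 bp and 1672 bp. At chr12:29584441-29585771 the widths were 573 bp and 1330 bp, and at chr11:117145782-117146773 they were 549 bp and 991 bp. In these 4 sites the far end retreated more than the end nearer to GR, for example by 950 bp and 33 bp on chromosome 7. The fifth, on chromosome 18, had 688 bp after dexamethasone and 1443 bp after vehicle. Its end nearer to GR moved out by 245 bp while the far end retreated by 1000 bp.

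The third question is where along the DHS the width was gained. It was asked of matched DHS with 1 GR peak whose centre lay inside the vehicle interval and at least 50 bp from its middle. In 1149 such DHS whose GR peak lacked C/EBPβ, the end nearer to GR moved out by a median of 74 bp (quartiles 11 and 152 bp). The far end moved by 17 bp (-32 and 72 bp). In 2273 with vehicle C/EBPβ the medians were 35 bp (-7 and 92 bp) and 0 bp (-47 and 49 bp). In 5234 DHS without GR that held 1 C/EBPβ peak, taken by the position of that peak, they were 10 bp (-34 and 58 bp) and -21 bp (-73 and 25 bp). In 396 DHS whose GR peak had C/EBPβ after dexamethasone only, they were 99 bp (47 and 159 bp) and 37 bp (-3 and 99 bp), the largest of the 4 kinds. By the medians, the nearer end moved out more than the far end around all 4.

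The nearer end moved out more than the far end in 808 of 1146 DHS whose GR peak lacked C/EBPβ (70.5%, 67.8 to 73.1). It did so in 1517 of 2264 with vehicle C/EBPβ (67.0%, 65.0 to 68.9) and in 3300 of 5209 GR-free DHS with C/EBPβ (63.4%, 62.0 to 64.7). With C/EBPβ after dexamethasone only it did so in 296 of 396 (74.7%, 70.2 to 78.8). The background over all DHS with 1 GR peak was 68.9%, and the 63.4% is the level around a C/EBPβ peak in DHS without GR. Those DHS differ from the class in both GR and C/EBPβ, which cannot be told apart here. A share well above an even split was thus also found without GR, and only the difference from it is tested here. Against GR-free DHS the odds ratio was 1.38 (1.20 to 1.59; two-sided Fisher's exact p = 4.00e-06, adjusted p = 6.99e-06), a comparison added after the data were seen, and within strata of width and offset 1.39 (1.20 to 1.598). Against GR with vehicle C/EBPβ it was 1.18 (1.01 to 1.37; Fisher's exact p = 0.0392, adjusted p = 0.0392). That difference did not hold up: within strata of width and offset the odds ratio was 0.898 (0.762 to 1.06), and without chromosome 15 it was 1.14 without strata (Fisher's exact p = 0.12).

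**Figure D5:**
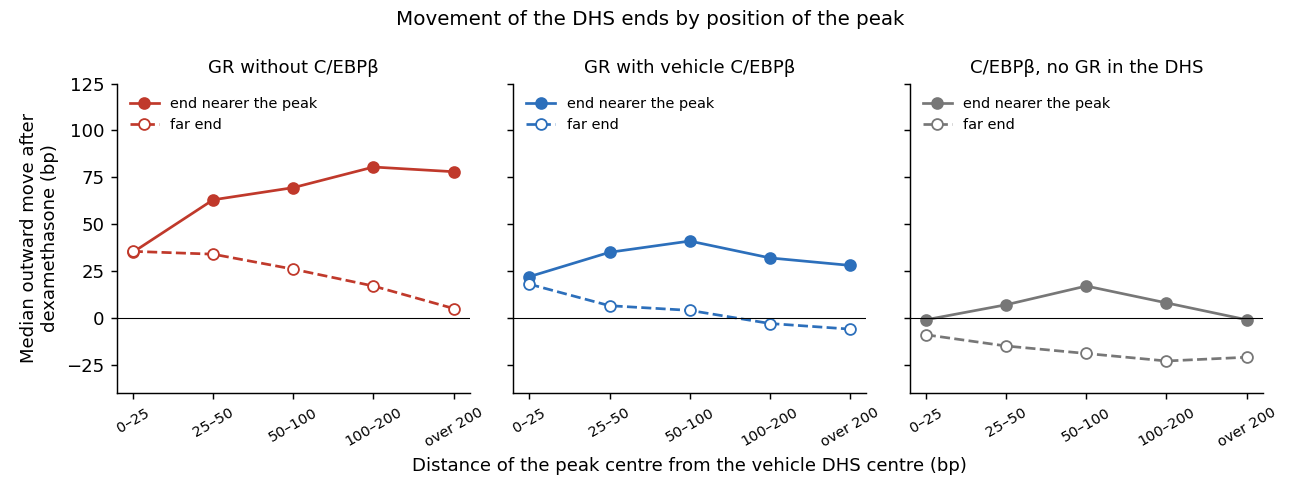
Median outward move (bp) after dexamethasone of the DHS end nearer to the peak (filled points, solid line) and of the far end (open points, dashed line), by distance of the peak centre from the vehicle DHS centre, for DHS with 1 GR peak without C/EBPβ, 1 GR peak with vehicle C/EBPβ, or 1 C/EBPβ peak and no GR. At peaks over 200 bp off centre the nearer end moved by 78, 28 and -1 bp and the far end by 5, -6 and -21 bp.

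At GR without C/EBPβ the medians of the 2 ends lay farther apart where GR was farther off centre. The nearer and far ends moved by 35 and 35.5 bp where GR lay within 25 bp of the DHS centre, by 69.5 and 26 bp at 50 to 100 bp, and by 78 and 5 bp beyond 200 bp. Around GR with vehicle C/EBPβ the corresponding values were 22 and 18 bp, 41 and 4 bp, and 28 and -6 bp. With C/EBPβ after dexamethasone only, they were 72 and 54.5 bp, 95 and 35.5 bp, and 90 and 26 bp. The wider gap off centre was thus not particular to GR without C/EBPβ. The peaks compared by side were picked for lying off centre in the vehicle DHS, so a smaller offset in the other list follows in part from that choice. For the 1149 without C/EBPβ the median distance from the DHS centre was 103 bp after dexamethasone and 122 bp after vehicle, against 89.5 and 98 bp with vehicle C/EBPβ and 88 and 96.5 bp for C/EBPβ in GR-free DHS, and no shift towards GR is read from these values.

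After dexamethasone the accessible sites that held a GR peak without C/EBPβ were of similar width to those of the other pre-open classes and wider than newly opened ones. Counted once per GR peak, the median DHS width after dexamethasone was 858 bp (quartiles 698 and 1164 bp) without C/EBPβ, 814 bp (683 and 1080 bp) with vehicle C/EBPβ and 872 bp (711 and 1169 bp) with C/EBPβ after dexamethasone only. For the 1482 GR peaks in newly open chromatin without C/EBPβ it was 632 bp (540 and 775 bp).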

How the data were processed

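The deposited files are interval lists whose values, per the file headers, are base positions (chromosome, start, end) and a running identifier. The authors' lists hold no count, score or signal, and 0 per-sample columns were left unused. Per the submitters' processing notes, CASAVA 1.8 and mm9 were used, while the aligner, peak caller, threshold and pooling of replicates are not stated in the labels or files used here. Whether positions count from 0 or 1 is not stated, so intervals were taken with the end base excluded and are printed as in the lists. After removal of 3 duplicate rows of the dexamethasone DHS list, overlaps of at least 1 bp were counted, and their totals for GR equalled those of bedtools 2.31.1.

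Classes of regions were compared with two-sided Fisher's exact tests, Woolf intervals and Mantel-Haenszel strata, with Benjamini-Hochberg adjustment over 7 tests. The code was checked on simulated lists. The members and comparisons were chosen with earlier results of these data known. Windows of 100 kb and DHS were named by rank (5 each by number of GR peaks without C/EBPβ, gain and loss of width), of which a selection is printed. Motif content and distance to genes were planned but not run, since no mm9 sequence or annotation was used here, so no gene is named and no sequence is shown. Tests were run with scipy 1.17.1 under Python 3.11.15, tables were handled with pandas 2.3.3 and numpy 2.4.6, and plots were drawn with matplotlib 3.10.9.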

Additional observations from a re-analysis of the deposited data

How the results depend on the processing

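The odds ratio for a gain of 25% or more in DHS width, against GR with vehicle C/EBPβ, stayed above 1 and past the threshold in the 10 alternatives tried with that comparison, between 1.49 (strata of width and offset) and 2.46 (1.5-fold gain), and with each chromosome left out in turn, between 2.18 and 2.28. Against DHS with neither GR nor C/EBPβ it was 3.002. Against DHS without GR it lay between 3.34 and 7.70, and between 3.21 and 3.38 with each chromosome left out. For narrowing against vehicle C/EBPβ it was 0.820 with the 1.5-fold limit (Fisher's exact p = 0.644), and 0.557 to 0.642 with each chromosome left out. For narrowing against DHS without GR those values were 0.154 to 0.174, and for the side of the gain against GR-free DHS 1.34 to 1.42. For accessibility after dexamethasone it was 0.371 with the GR centre inside the intervals, 0.371 with 75 bp of the GR interval covered (Fisher's exact p = 0.0604) and 0.298 with GR wholly inside the vehicle DHS (Fisher's exact p = 0.0502), each no longer past the threshold, and 0.223 to 0.301 with each chromosome left out. For the side of the gain against vehicle C/EBPβ it was 1.17 on autosomes only (Fisher's exact p = 0.0553) and reversed to 0.898 within strata of width and offset. With each chromosome left out it lay between 1.14 and 1.23, and 9 of those 20 values were past the threshold. The cause of these changes was not tested. Added after seeing the data were the strata of width and offset, GR wholly inside the vehicle DHS or within 50 bp of its centre, every DHS still present, chromosomes left out, and each alternative for narrowing, for DHS without GR and for GR-free DHS with C/EBPβ. No paired analysis was possible because the lists carry no replicate columns. Read depth, and with it the chance of missing a weak C/EBPβ peak, is unknown. The vehicle DHS list took part in the rule. Alternatives for width, narrowing and side are thus not independent of how the sites were chosen.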
